A study of Homo sapiens with 6 samples.

Results

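The genes described here are the small nucleolar RNAs (snoRNAs) SNORD113 and SNORD114 of chromosome 14q32 and their imprinted neighbours DLK1, MEG3, RTL1, MEG8, MEG9 and DIO3. They were picked out by gene symbol, and 46 of the 22320 genes averaged from the array carried such a symbol. These were 9 SNORD113 genes, 31 SNORD114 genes and the 6 neighbours, while SNORD112 had 0 probe sets with a single symbol. The set was proposed with its levels on all 6 arrays known, so the difference between the cell lines is described and not tested.

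Transcripts were measured in HEL and SET2, established human lines labelled as acute myeloid leukemia. Each line was transduced with lentivirus carrying an shRNA against IGF1R, which encodes an insulin-like growth factor receptor, a miR-125a sponge, meant to bind that microRNA, or the pLKO vector as control. All cultures, controls included, were selected with puromycin for 96 h. There was 1 GeneChip Human Gene 2.0 ST array per line and treatment, which makes 3 arrays per line and 6 arrays in all, and the lines are the only replication of a treatment. The values are the authors' log2 signals, with array medians between 5.69 and 5.75.

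No lowering of IGF1R itself was called under the shRNA. Its log2 level was 8.56 in the HEL shRNA array and 8.81 in the HEL sponge array, against 8.63 in the HEL control, and 8.33 in the SET2 shRNA array and 8.37 in the SET2 sponge array, against 8.32 in the SET2 control. Under the shRNA the limma estimate was -0.032, with a standard error of 0.15, a 95% confidence interval from -0.38 to 0.31 and an adjusted p of 0.973, so these arrays are called by their label. Of the listed lineage genes, KLF1, an erythroid transcription factor, read 7.92 to 9.11 over the 6 arrays and ITGB3, a platelet integrin, 7.84 to 10.56. Others fell lower on some arrays, with 4.39 to 7.57 for the anion exchanger gene SLC4A1 and 4.98 to 8.73 for the megakaryocyte gene GP9. The T cell gene CD3D read 3.78 to 4.02 and the B cell gene MS4A1 3.66 to 3.92, but KRT18, of another cell type, read 4.68 to 6.45. These genes were picked from longer lists and do not settle cell identity. Further lineage genes are given at the end.

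At 14q32 the parental chromosomes are read differently. The paternal copy expresses protein genes: DLK1, a membrane ligand related to Notch ligands, RTL1, a gene derived from a retrotransposon, and DIO3, which inactivates thyroid hormone. The maternal copy expresses the long RNAs MEG3, MEG8 and MEG9, a large group of microRNAs and the SNORD113 and SNORD114 genes, which are box C/D snoRNAs cut from introns. Most box C/D snoRNAs guide methylation of ribosomal RNA, but no such target is established for these. In RefSeq's GRCh38.p14 annotation all 46 genes lie on chromosome 14, and all 40 snoRNA genes lie inside the span of MEG8, in the order of their numbers.

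The snoRNA genes were low in HEL and high in SET2. All 40 had a lower mean in HEL than in SET2, and in 39 of the 40 every HEL array lay below every SET2 array. This compares with 48.9% of all 22320 genes with a lower mean in HEL, and with 20.0% whose 3 HEL arrays all lay below the 3 SET2 arrays. The median difference, HEL minus SET2, was -2.90 on the log2 scale for the 40 snoRNA genes, -3.10 for SNORD114 and -1.56 for SNORD113, against 0.0076 over all genes. Of the 46 members, 33 were at least 2-fold lower in HEL and 0 at least 2-fold higher, against 4.46% and 3.71% of all genes, 3.06% and 2.64% of the 2618 genes that, like each snoRNA, rest on 1 probe set, and 4.55% and 7.58% of the 66 SNORD genes outside SNORD112 to SNORD116. In those smaller backgrounds, 12.9% of the genes with 1 probe set and 12.1% of the other SNORD genes had all HEL arrays below all SET2 arrays. At least 8-fold lower in HEL were 20 of the 40 snoRNA genes, against 0.358% of all genes and 0.764% of the genes with 1 probe set, and 0 of the 66 other SNORD genes were. Because these levels helped to choose the set, nothing is inferred from those shares.

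The 5 largest differences in signal belonged to SNORD114-28, SNORD114-3, SNORD114-20, SNORD114-12 and SNORD113-4. No fold is given for each of them, because their HEL signals lie at the low end of the scale and no detection call could be made. Counts of genes or probe sets at a given fold, in this text, mark differences in signal and not the size of a change in RNA. In this and the next paragraphs the 3 values of a line are those of the IGF1R shRNA, sponge and control arrays, in that order. SNORD114-28 read 2.65, 2.42 and 2.54 in HEL, against 9.44, 8.45 and 8.70 in SET2, a difference of -6.33. SNORD114-3 read 2.68, 2.89 and 3.05 in HEL, against 9.58, 8.47 and 8.67 in SET2, a difference of -6.03. For both genes the lines stood apart on every array, and the shRNA array was the highest of the SET2 arrays. SNORD114-20 read 2.78, 2.75 and 2.59 in HEL, against 8.28, 8.39 and 8.35 in SET2 (difference -5.63), with no array of a line standing out. SNORD114-12 read 2.81, 3.25 and 3.84 in HEL, against 8.89, 7.90 and 8.11 in SET2 (difference -5.00), and its spread was the same in each line, with an SD of 0.52 (n = 3 arrays of different treatments). SNORD113-4 read 2.30, 2.75 and 2.58 in HEL, against 7.53, 7.28 and 7.34 in SET2 (difference -4.84).

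**Figure D1:**
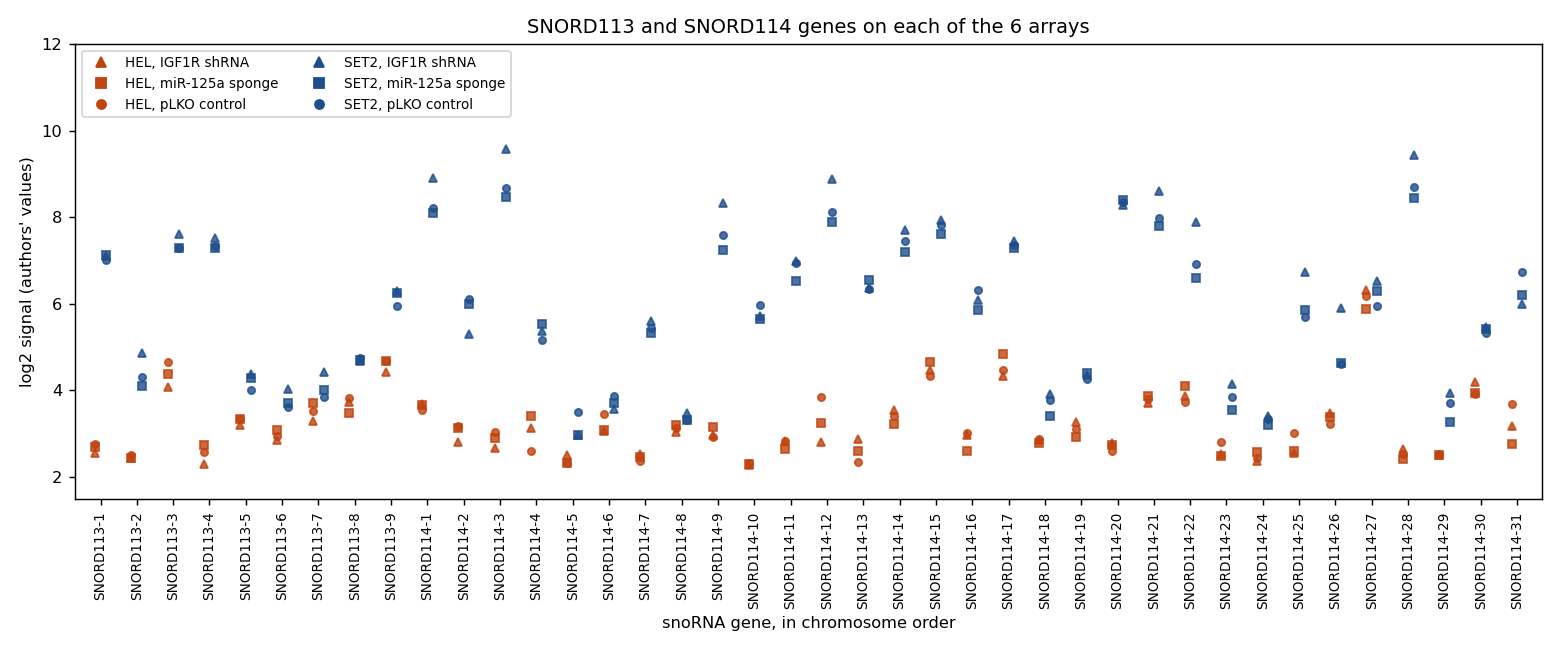
Log2 signal of the 40 SNORD113 and SNORD114 genes, in chromosome order, on each array; HEL arrays are orange and SET2 arrays blue, and the marker shape gives the treatment. HEL arrays lie below SET2 arrays for every gene except SNORD114-27, where they overlap.

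The values of the snoRNA genes covered a wider range in SET2 than in HEL. In HEL, all 3 arrays lay under a log2 signal of 5 for 39 of the 40 genes, and the values ran from 2.27 to 6.33. In SET2 the values ran from 2.97 to 9.58, with all 3 arrays above 5 for 26 genes and above 7 for 13. The SD over the 3 arrays of a line had a median of 0.152 in HEL and 0.245 in SET2 over the 40 genes. Probe sets differ in how strongly they bind, so levels are compared across arrays and not between genes. No detection call against background could be made.

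Large differences were spread along the host transcript. Of the 20 snoRNA genes at least 8-fold lower in HEL, 3 were SNORD113 genes and 17 SNORD114 genes, and they included the first and the last of the 40 in chromosome order. The longest unbroken run was 8 genes, SNORD114-9 to SNORD114-16. Between them lay 9 genes that differed by less than 2-fold. The smallest difference was that of SNORD114-27, at -0.12, which read 6.33, 5.88 and 6.19 in HEL, against 6.52, 6.29 and 5.96 in SET2. Members of a snoRNA family resemble each other in sequence, so a probe set can also bind RNA of a sister gene. How much this adds to a single gene's value was not tested.

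MEG3, the maternally expressed long RNA that opens the domain, followed the same direction. Its average over 20 probe sets was 4.32, 4.28 and 4.22 in HEL, against 7.64, 7.92 and 7.99 in SET2, and the groups did not overlap. The difference was -3.58 (SD 0.053 in HEL and 0.19 in SET2, n = 3 arrays each). The average hides a wide range, since the difference of single probe sets ran from -7.72 to -0.51. All 20 were lower in HEL, 18 by at least 2-fold and 7 by at least 16-fold, and in 17 no HEL array reached a SET2 array. A further probe set shared by MIR770 and MEG3, left out of the averages, had a difference of -0.48.

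A promoter of MEG3 is shown because this RNA had the largest difference of the 6 neighbours. For this gene 3 promoter entries are listed, and only the one with the lowest start coordinate is described. The stretch, from RefSeq on GRCh38.p14, covers chr14:100825858-100826157 on the plus strand and ends just inside the transcript. Capitals mark 3 motifs that were searched on both strands: CCAAT, the cyclic AMP response element TGACGTCA, and TATAAA.
MEG3 promoter: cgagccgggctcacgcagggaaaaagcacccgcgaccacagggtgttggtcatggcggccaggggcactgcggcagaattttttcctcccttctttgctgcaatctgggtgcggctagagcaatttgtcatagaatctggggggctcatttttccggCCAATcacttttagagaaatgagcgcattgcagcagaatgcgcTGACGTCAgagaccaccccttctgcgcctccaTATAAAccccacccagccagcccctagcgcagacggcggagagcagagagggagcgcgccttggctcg
CCAAT began 93 bases, TGACGTCA 50 bases and TATAAA 18 bases before the start annotated for that entry. Among 35116 promoters of the same length in that table, 34.6% held CCAAT, 1.85% held TGACGTCA and 11.5% held TATAAA, on either strand. The window held 19 CpG sites, more than 57.1% of these promoters. A match is a description of the letters and no evidence that a factor binds there.

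MEG8, the long RNA whose introns hold the snoRNA genes, was lower in HEL as well. Its average over 7 probe sets was 4.67, 5.53 and 4.87 in HEL, against 7.35, 7.41 and 7.53 in SET2, a difference of -2.41. All 7 probe sets were lower in HEL, 5 of them by at least 2-fold, and the differences ran from -5.27 to -0.69. The median of the probe sets gave -3.51 and the brightest -1.43. MEG9, the long RNA beyond the microRNAs, averaged 5.40, 5.37 and 5.33 in HEL, against 6.06, 6.05 and 6.09 in SET2, a difference of -0.70. Most of that value comes from 1 of its 6 probe sets, which differed by -2.87 and was the only one without overlap between the lines, and the brightest probe set gave 0.27.

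Of the protein genes of the paternal copy, DLK1 was lower in HEL, RTL1 overlapped between the lines and DIO3 was higher in HEL. DLK1 averaged 7.30, 7.49 and 7.56 over 11 probe sets in HEL, against 8.62, 7.89 and 7.74 in SET2, a difference of -0.63 with no overlap, and its brightest probe set gave -1.52. Its probe sets went both ways. In 7 of the 11, HEL was at least 2-fold lower with no overlap, whereas in 2 it was at least 2-fold higher, and the differences ran from -1.96 to 2.45. RTL1 read 4.13, 4.52 and 4.42 in HEL, against 4.13, 4.82 and 4.40 in SET2, and the lines overlapped. DIO3 read 4.43, 4.38 and 4.37 in HEL, against 3.96, 3.99 and 4.13 in SET2, a difference of 0.37 with no overlap, and it was the only member with a higher mean in HEL.

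**Figure D2:**
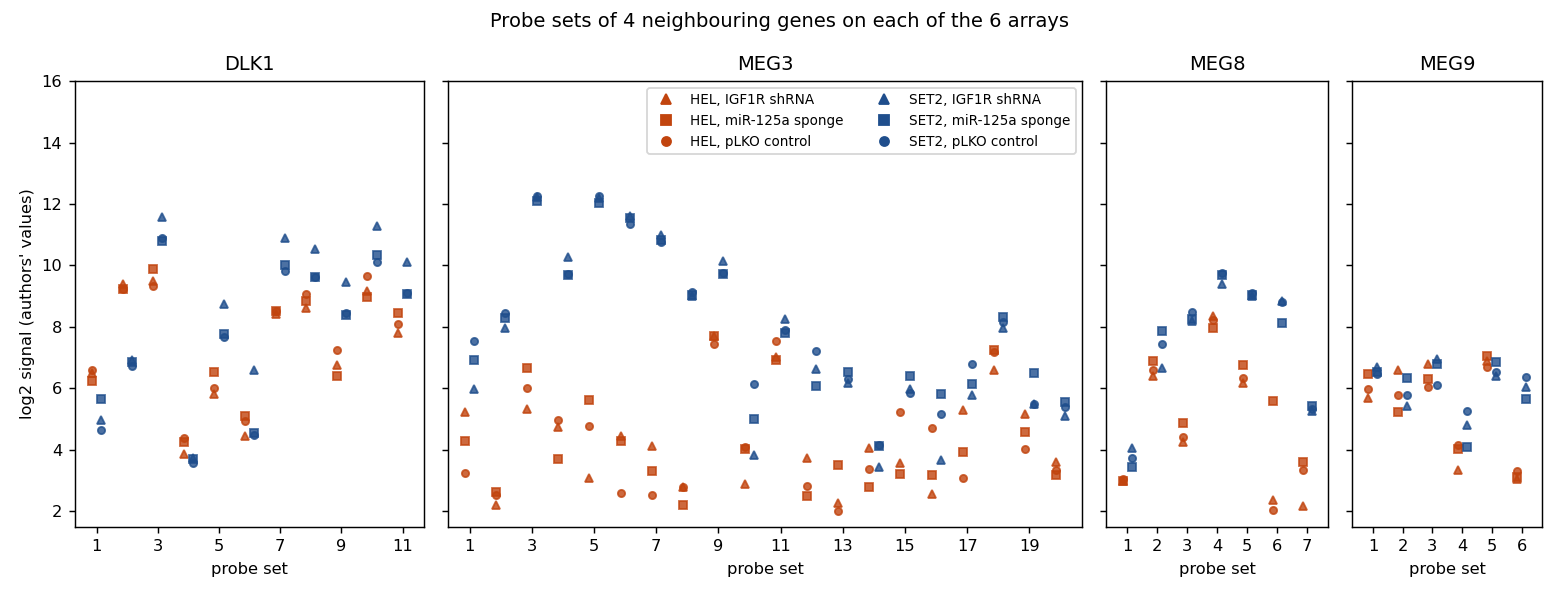
Log2 signal of each probe set of DLK1, MEG3, MEG8 and MEG9 on the 6 arrays, with probe sets in identifier order, HEL in orange and SET2 in blue. All MEG3 and MEG8 probe sets have a lower mean in HEL, while those of DLK1 go both ways.

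The microRNA genes of the same domain were measured through probe sets on the precursor, 53 of 54 listed genes with 1 probe set each. Of these, 46 had a lower mean in HEL, 7 were at least 2-fold lower (13.2%, against 4.46% of all genes) and 0 at least 2-fold higher. In 26 all HEL arrays lay below all SET2 arrays (49.1%, against 20.0% of all genes), and in 1, MIR656, all lay above, with 3.51, 3.45 and 3.45 in HEL, against 3.19, 3.27 and 3.31 in SET2. Their median difference was -0.35, with a range from -2.23 to 0.24. MIR544A read 3.39, 3.37 and 2.83 in HEL, against 5.29, 5.54 and 5.46 in SET2. MIR487A read 3.0, 2.79 and 2.85 in HEL, against 4.79, 4.81 and 5.35 in SET2. Both were lower in HEL on every array, with differences of -2.23 and -2.10. MIR329-1 read 4.82, 4.46 and 4.86 in HEL, against 6.79, 6.77 and 6.73 in SET2 (difference -2.05), and MIR376B read 3.18, 2.72 and 2.94 in HEL, against 4.75, 3.96 and 4.08 in SET2 (difference -1.32). These 4 had the largest differences of the list.

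Their mature sequences, from RefSeq on GRCh38.p14 (5′ to 3′, all on the plus strand of chromosome 14), are shown with the seed, bases 2 to 8, in capitals, since the seed sets which transcripts a microRNA pairs with.
miR-544a: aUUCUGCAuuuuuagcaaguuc
miR-487a-5p: gUGGUUAUcccugcuguguucg
miR-487a-3p: aAUCAUACagggacauccaguu
miR-329-5p: gAGGUUUUcuggguuucuguuuc
miR-329-3p: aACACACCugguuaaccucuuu
miR-376b-5p: cGUGGAUAuuccuucuauguuu
miR-376b-3p: aUCAUAGAggaaaauccauguu
Among the 94 mature sequences of the listed genes, miR-487a-5p shared its seed with miR-487b-5p, miR-487a-3p with miR-154-3p, miR-376b-5p with miR-376c-5p and miR-376b-3p with miR-376a-3p. The seeds of miR-544a and of both arms of miR-329 were not shared. The array reads precursor transcripts and not these mature forms, so no level of a mature microRNA is given.

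Genes around the domain differed less between the lines. Of 20 flanking genes, 15 had a lower mean in HEL (75.0%, against 48.9% of all genes), with a median difference of -0.15. In 7 all HEL arrays lay below all SET2 arrays (35.0%, against 20.0% of all genes). At least 2-fold higher in HEL were 0, against 3.71% of all genes, and at least 2-fold lower were 2 (10.0%, against 4.46%). They were WARS, a tRNA synthetase gene, which read 7.81, 9.12 and 9.10 in HEL, against 9.44, 9.91 and 10.00 in SET2, and PPP2R5C, a phosphatase subunit gene, which read 5.84, 5.94 and 5.67 in HEL, against 6.99, 6.96 and 6.83 in SET2. DYNC1H1, a dynein heavy chain gene, differed by -0.97 and SLC25A29, a mitochondrial carrier gene, by -0.87. SLC25A29 read 6.49, 7.69 and 7.70 in HEL, against 8.37, 8.10 and 8.03 in SET2, so the shRNA array lowered its HEL mean. The antisense RNA DIO3OS, listed with the 14q32 microRNAs and not with the flanking genes, differed by 0.037.

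Other snoRNA genes and other imprinted genes gave the scale for these differences. At least 2-fold lower in HEL were 4.46% of all genes, and 3.71% were at least 2-fold higher. Of the 66 other SNORD genes, 3 (4.55%) were at least 2-fold lower and 5 (7.58%) at least 2-fold higher in HEL. Their median difference was 0.13. The imprinted SNORD115 genes of chromosome 15 had 0 of 25 and the SNORD116 genes 0 of 18 at least 2-fold lower in HEL. At least 2-fold higher in HEL were 7 SNORD116 genes (38.9%) and 0 SNORD115 genes. Of 35 imprinted genes from other loci, 2 (5.71%) were at least 2-fold lower in HEL, ZDBF2 (difference -3.003) and NDN (-1.15). Another 2 (5.71%) were at least 2-fold higher, PPP1R9A (1.63) and the long RNA KCNQ1OT1 (1.24). Proteins that build box C/D snoRNA particles had 0 of 11 genes at 2-fold in either direction. The largest differences among them were those of the assembly factors ZNHIT6 (0.90), RUVBL2 (-0.75), PIH1D1 (0.51) and RPAP3 (0.50). Less RNA per cell and fewer cells with the RNA cannot be told apart in such bulk samples.

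**Figure D3:**
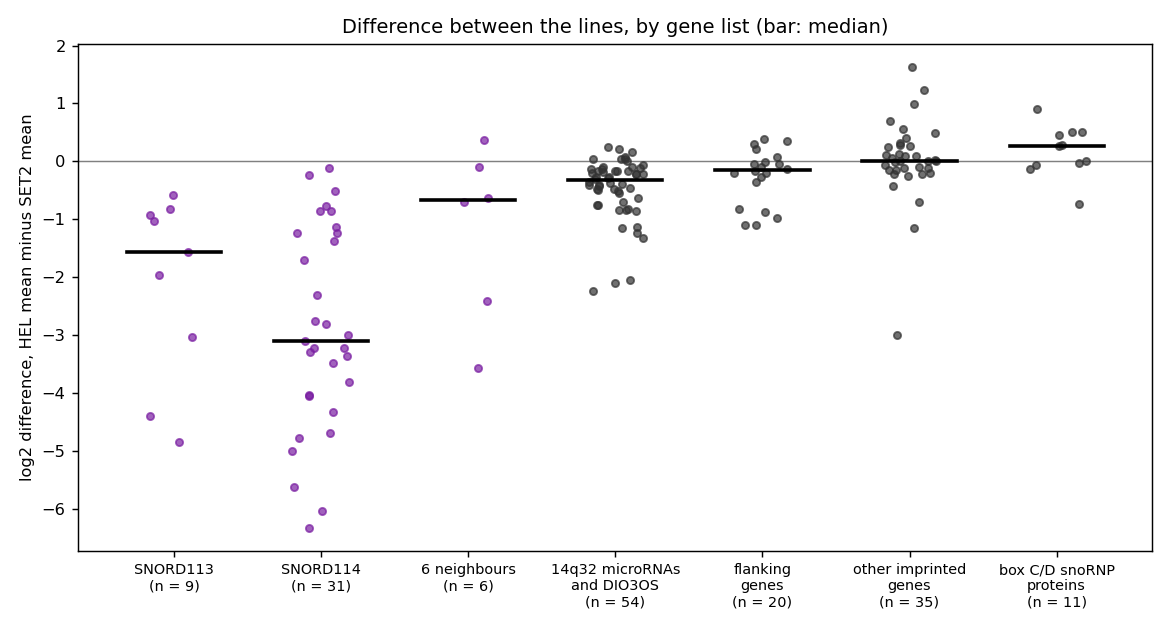
Difference of log2 means, HEL minus SET2, for each gene of 7 lists, with horizontal bars at the list medians. SNORD113 and SNORD114 reach from -6.33 to -0.12, while the 14q32 microRNA list stays between -2.23 and 0.24.

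The first treatment question is which transcripts differ from pLKO where the IGF1R shRNA was introduced. None of the 46 members passed. Limma, fitted over all 22320 genes with treatment and line as terms, called 0 members after Benjamini-Hochberg adjustment and 0 of all genes (0% called). At an unadjusted p under 0.05 stood 3 of the 46 members, against 7.42% of all genes. These were SNORD114-2, with a change of -0.59 (SE 0.17, adjusted p = 0.624), SNORD114-31, with -0.63 (SE 0.18, adjusted p = 0.624), and SNORD114-26, with 0.77 (SE 0.28, adjusted p = 0.645). The median change was 0.063 over the members and -0.011 over all genes.

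SNORD114-2 read 2.82 in the HEL shRNA array, against 3.18 in its control, and 5.31 in the SET2 shRNA array, against 6.12 in its control. SNORD114-31 read 3.18, against 3.68 in the HEL control, and 5.99, against 6.74 in the SET2 control. Both were lower under the label in each line, and so were SNORD114-6, SNORD113-8 and SNORD114-10, with changes of -0.34, -0.080 and -0.16. SNORD114-26 read 3.47 in the HEL shRNA array, against 3.22 in its control, and 5.90 in the SET2 shRNA array, against 4.62 in its control. Ordered by the change in whichever line changed less, the next genes above control in both lines were SNORD114-4 (mean change 0.37) and SNORD114-7 (0.18), followed at a tie by SNORD114-1 (0.42), SNORD114-22 (0.56), SNORD114-27 (0.35) and SNORD114-30 (0.21). Without the SET2 shRNA array SNORD114-22 stood at -0.035. In all, 13 of the 40 snoRNA genes lay above and 6 below control in both lines, and 20 had opposite signs in the lines. Of all 22320 genes, 5027 lay above and 6020 below control in both lines, and 11115 had opposite signs.

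Under the shRNA more snoRNA genes stood above control in SET2 than in HEL, a difference that was not tested. In SET2, 32 of the 40 snoRNA genes were above control, with a median change of 0.20, and 10 of the 40 were at least 1.5-fold higher, against 2.17% of all genes. In HEL, 15 of the 40 were above control, with a median of -0.065, and 0 of the 40 were at least 1.5-fold higher, against 5.75% of all genes and 5.42% of genes with 1 probe set. At least 1.5-fold lower were 2 of the 40 in SET2, against 3.44% of all genes and 3.78% of genes with 1 probe set, and 1 of the 40 in HEL, against 5.49% and 6.0%. Other small RNA lists varied in how far they moved with this pattern. Of the 66 other SNORD genes, 80.3% were above control in SET2 and 18.2% in HEL, against 45.0% and 50.1% of all genes, and in SET2 16.7% were at least 1.5-fold higher. Of genes with 1 probe set, 60.7% were above control in SET2, with a median change of 0.080, and 49.7% in HEL. In SET2, 8.75% of these were at least 1.5-fold higher. The 18 SNORD116 genes had a median change of 0.63 in SET2 and -1.54 in HEL. Of the 53 microRNA genes, 58.5% were above control in SET2 and 67.9% in HEL, with medians of 0.090 and 0.060. Of the 25 SNORD115 genes, 64.0% were above control in SET2 and 52.0% in HEL, with medians of 0.050 and 0.030. Each of these values compares 1 array with 1 array. In HEL, 39 of the 40 snoRNA genes lay under a log2 signal of 5 on all arrays, with no detection call. That limits how far their signs and changes in HEL can be read. What part a shift of many SNORD probe sets on an array has in the snoRNA values was not tested.

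Of the 6 neighbours, 1 stood above control in SET2 under the shRNA, DLK1, and 3 did in HEL. MEG3 stood 0.11 above control in HEL and 0.35 below it in SET2, and MEG8 0.19 below it in HEL and 0.18 below it in SET2. The fitted changes were -0.12 for MEG3 (95% confidence interval -0.52 to 0.27, adjusted p = 0.884) and -0.19 for MEG8 (-0.72 to 0.35, adjusted p = 0.868). DLK1 stood at 8.62 in the SET2 shRNA array, against 7.74 in its control, and at 7.30 in the HEL shRNA array, against 7.56 in its control. In SET2 all 11 DLK1 probe sets were higher under the shRNA, by 0.17 to 2.12 with a median of 0.99, whereas in HEL 9 of the 11 were lower, with a median of -0.30. Over both lines limma estimated a DLK1 change of 0.31 with SE 0.27 and an adjusted p of 0.815 (95% confidence interval -0.33 to 0.95), and without the SET2 shRNA array the estimate was -0.205. The difference between the lines was not tested. RTL1 changed by -0.28 (adjusted p = 0.724), MEG9 by 0.016 (adjusted p = 0.985) and DIO3 by -0.053 (adjusted p = 0.955).

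**Figure D4:**
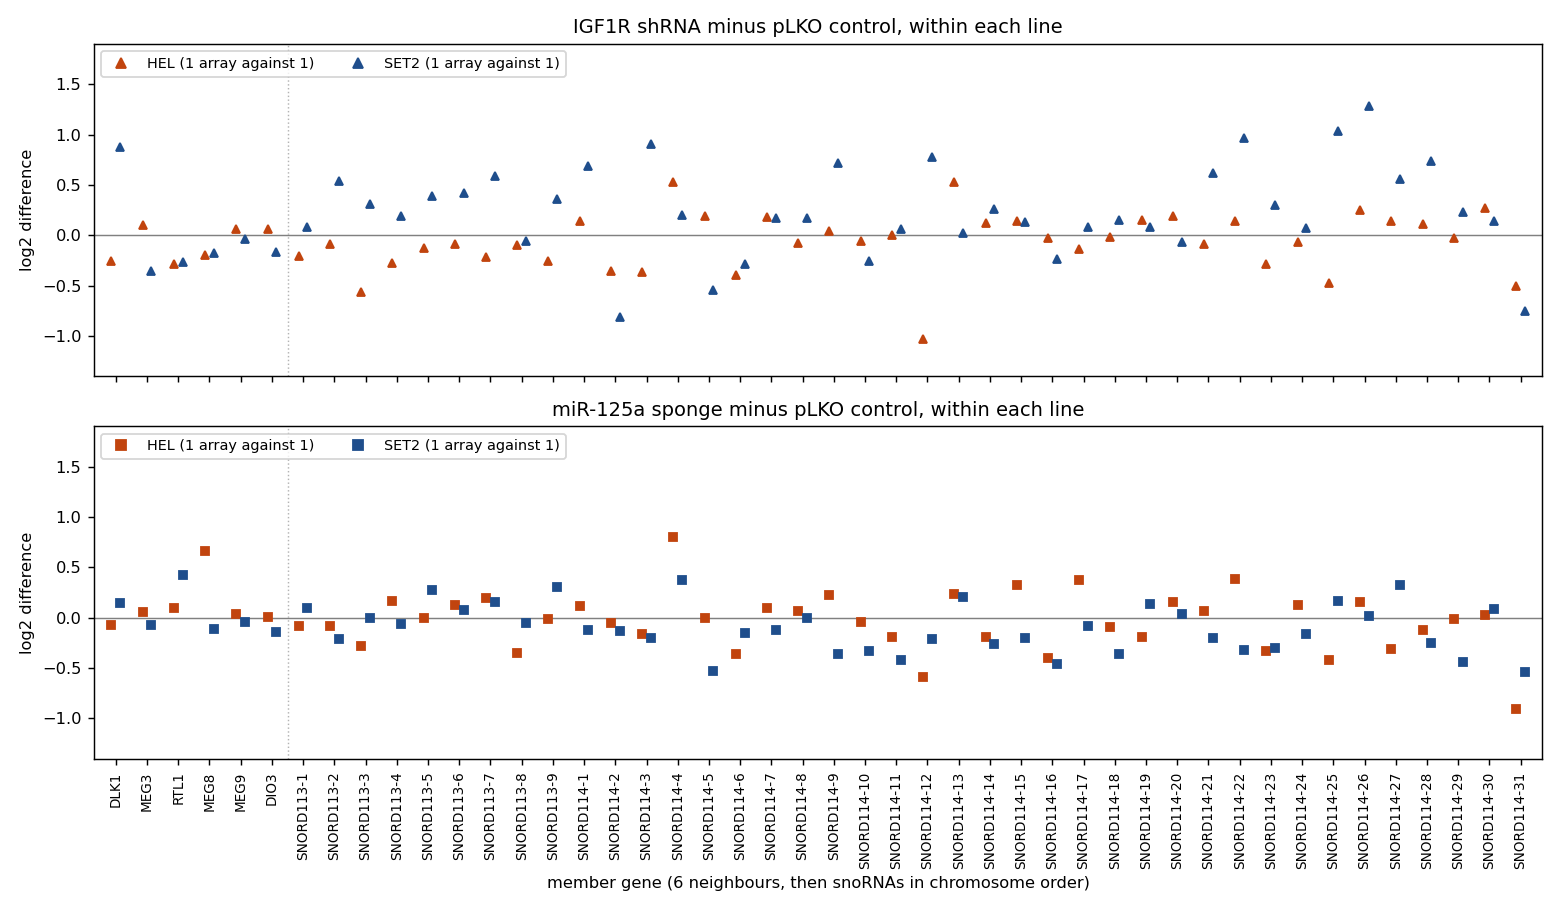
Log2 difference from the pLKO control of the same line for the 46 members, under IGF1R shRNA (top) and miR-125a sponge (bottom); HEL is orange and SET2 blue, and each point is 1 array minus 1 array. Under the shRNA 32 of the 40 snoRNA genes lie above 0 in SET2 and 15 in HEL.

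The other treatment question is which transcripts differ from pLKO where the miR-125a sponge was introduced. Limma called 0 of the 46 members and 0 of all genes (0% called), with adjusted p = 1 for each member. At an unadjusted p under 0.05 stood 3 members, against 1.85% of all genes and 4.70% of genes with 1 probe set. They were SNORD114-31, with a change of -0.73 (SE 0.18), SNORD114-4, with 0.59 (SE 0.16), and SNORD114-16, with -0.43 (SE 0.15). SNORD114-31 read 2.77 in the HEL sponge array, against 3.68 in its control, and 6.20 in the SET2 sponge array, against 6.74 in its control. SNORD114-4 read 3.41 in the HEL sponge array, against 2.61 in its control, and 5.54 in the SET2 sponge array, against 5.17 in its control. Since the shRNA comparison uses the same controls, the values of SNORD114-31 and SNORD114-4 in both comparisons are not independent.

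Under the sponge 7 of the 40 snoRNA genes lay above and 15 below control in both lines. Of all 22320 genes, 4693 lay above and 6610 below control in both lines. Above control stood 42.7% of all genes in SET2 and 48.3% in HEL, and 52.8% and 48.7% of genes with 1 probe set. In SET2, 13 of the 40 were above control, with a median of -0.13 and 0 of the 40 at least 1.5-fold higher, against 0.968% of all genes and 3.90% of genes with 1 probe set, and 0 at least 1.5-fold lower, against 0.833% and 2.25%. In HEL, 17 of the 40 were above control, with a median of -0.010 and 1 at least 1.5-fold higher, against 1.23% of all genes and 4.81% of genes with 1 probe set, and 2 at least 1.5-fold lower, against 1.19% and 3.78%. By the same order, the genes above control in both lines after SNORD114-4 were SNORD114-13 (0.23), SNORD113-7 (0.18), SNORD113-6 (0.11) and SNORD114-20 (0.10). Those below control in both lines after SNORD114-31 and SNORD114-16 were SNORD114-23 (-0.32), SNORD114-12 (-0.40), and at a tie SNORD114-11 (-0.31) and SNORD114-14 (-0.23). Without the HEL control array SNORD114-12 stood at 0.148.

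Of the neighbours, MEG8 stood farthest from control under the sponge, at 5.53 in HEL, against 4.87 in the control, and at 7.41 in SET2, against 7.53. The fitted change was 0.28 (SE 0.22, 95% confidence interval -0.26 to 0.81). The HEL value rests on 1 of the 7 probe sets, which read 5.59 in the sponge array, against 2.05 in the control, and without the HEL sponge array the change was -0.117. RTL1 changed by 0.26, DLK1 by 0.040, MEG3 by -0.0065, MEG9 by -0.0025 and DIO3 by -0.065. The lists of microRNAs with DIO3OS, flanking genes, other imprinted genes and snoRNA particle proteins had 0 genes called by limma under either treatment. At an unadjusted p under 0.05 they held, in that order, 3 (5.56%), 2 (10.0%), 1 (2.86%) and 1 (9.09%) genes under the shRNA, against 7.42% of all genes. Under the sponge they held 4 (7.41%), 0, 1 (2.86%) and 0, against 1.85% of all genes and 4.70% of genes with 1 probe set. Each of these shares rests on few genes.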

How the data were processed

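Transcripts were measured on 6 GeneChip Human Gene 2.0 ST arrays of total RNA. The deposited values are log2 signals per probe set, made by the authors in Expression Console (Affymetrix), as the submitters' processing notes name it. Their range, 1.61 to 13.99, shows the log2 scale. Summarisation, background correction, normalisation and build are not given in the sources used here. Of 352859 probe sets, 259224 carried a single symbol in the array's annotation and were averaged into 22320 genes. Probe sets with several symbols (13116) or no listed gene (80519) were left out. No filter on low values was used.

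All arrays were fitted in limma 3.58.1 (R 4.3.3) by lmFit and eBayes with treatment and line as terms, leaving 2 residual degrees of freedom beside 4.78 prior ones. P-values are two-sided, Benjamini-Hochberg adjusted over all genes, with 0.05 as threshold. Their spread is that between the responses of HEL and SET2, and precision is limited by having 6 arrays. Replicate 1 is HEL and replicate 2 is SET2, so arrays pair by line, and deviations from treatment means correlated at 0.746 to 0.884 between treatments. HEL against SET2 was described with no test.

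Members and lists were chosen with earlier results of these data known, and so were the 2-fold and 1.5-fold marks. Named were the 6 neighbours, the 5 snoRNA genes with the largest difference between lines in each direction (0 were higher in HEL), the 5 largest same-sign changes per treatment and direction, ordered by whichever line changed less and with ties kept, and up to 4 genes per list. Genes outside this rule, such as MIR656, DIO3OS, IGF1R and, between lines, SNORD114-27, were named after their values were seen. Alternatives were the median or brightest probe set, quantile normalisation, leaving out genes below the median level of 5.55, leaving out each array, and the fit without the line. Tables were handled in pandas 2.3.3 and plots drawn in matplotlib 3.10.9.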

Additional observations from a re-analysis of the deposited data

Results flagged for a closer look

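SNORD114-12 moved in opposite directions in the lines under the IGF1R shRNA. It was 1.03 below control in HEL and 0.78 above it in SET2, in log2 units (changes -1.03 and 0.78), and each change exceeded the SD of the changes of all genes in that line, 0.39 in HEL and 0.30 in SET2. Each value compares 1 array with 1 array, and the difference between the lines was not tested. The HEL control array, at 3.84, was the highest of the HEL arrays for this gene, and all its HEL values lie at the low end of the scale. Those SDs cover all genes, most of them averages of several probe sets, whereas SNORD114-12 rests on 1. In SET2, 8.75% of genes with 1 probe set were at least 1.5-fold higher under the shRNA, against 2.17% of all genes. Opposite signs in the lines were found for 20 of the 40 snoRNA genes and for 11115 of all 22320 genes.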

How the results depend on the processing

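The counts of members called stayed at 0 for the shRNA and for the sponge under the median or brightest probe set, quantile normalization, without dim genes, without the line as replicate block (0 of 46 members called in either comparison) and without any single array, although 729 of all genes passed for the shRNA without IGF1R shRNA replicate 2. The count of members at least 2-fold lower in HEL, 33 of 46, ran from 32 to 34 without single arrays, was 33 with the median of the probe sets, 34 with the brightest and 33 after quantile normalization, and 40 at 1.5-fold. With dim genes left out it was 10, because 13 members were then tested. That filter uses the mean of all 6 arrays, so a gene low in HEL can pass through its SET2 values. SNORD114-3, with means of 2.87 in HEL and 8.91 in SET2, is an example. The count of 10 is therefore no check of the difference between the lines. Among genes that were not called, with changes as large as 0.555 (SNORD114-22 under the shRNA) and -0.40 (SNORD114-12 under the sponge), leaving out 1 array turned some signs, and the cause was not tested. For the shRNA the values then ran from -0.205 to 0.825 for DLK1, -0.321 to 0.074 for MEG3 and -0.149 to 0.042 for DIO3, each turned without shRNA or control replicate 2. They ran from -0.389 to 0.017 for MEG8 (turned without shRNA replicate 1 or control replicate 2), -0.028 to 0.060 for MEG9 (shRNA or control replicate 1), -0.035 to 1.145 for SNORD114-22 (shRNA replicate 2) and -0.165 to 0.005 for SNORD113-8 (control replicate 1). For the sponge they ran from -0.300 to 0.381 for DLK1, -0.153 to 0.140 for MEG3, -0.043 to 0.402 for SNORD113-7 and -0.048 to 0.258 for SNORD113-6, each turned without sponge replicate 1 or control replicate 2. They ran from -0.117 to 0.670 for MEG8 (sponge replicate 1), -0.047 to 0.042 for MEG9 (sponge or control replicate 2), -0.161 to 0.031 for DIO3 (control replicate 2) and -0.948 to 0.148 for SNORD114-12 (control replicate 1). The brightest probe set gave 0.245 for MEG3, -0.155 for MEG8 and 0.355 for MEG9, the median 0.045 for MEG9, and quantile normalization 0.030 for MEG3 and 0.022 for MEG9. Between lines, RTL1 ran from -0.255 to 0.090, turned without shRNA replicate 1 or sponge replicate 2, and the brightest probe set gave 0.093 for RTL1 and 0.273 for MEG9. Where an array was left out, the remaining array of that treatment was assumed to vary like the other groups. Without detection calls, low signals in HEL limit how far a difference can be read as a size.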

Other observations

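Of 15 listed factors that maintain or remove DNA methylation at imprinted genes, 1 was at least 2-fold lower in HEL (6.67%, against 4.46% of all genes) and 1 at least 2-fold higher (6.67%, against 3.71%), shares that rest on 1 gene each. TET1, which oxidises methylated cytosine, read 6.08, 6.17 and 6.08 in the HEL arrays (IGF1R shRNA, sponge, control), against 7.95, 7.66 and 7.46 in the SET2 arrays. DNMT3B, which adds methyl groups to unmethylated DNA, read 8.83, 8.56 and 8.39 in HEL, against 7.24, 7.16 and 7.37 in SET2. The related TET2 differed by -0.98 and CTCF, a factor that binds insulators, by -0.63. No link between these genes and the 14q32 transcripts was tested.

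Lineage genes differed in both directions. Of 10 erythroid genes, 6 had a lower mean in HEL (60.0%, against 48.9% of all genes). The embryonic globin gene HBE1 was higher in HEL by 5.38. The anion exchanger gene SLC4A1 (-2.82) and the fetal globin gene HBG1 (-2.25, 1 probe set) were lower, and KLF1 differed by -0.98. HBG2, a further fetal globin gene with 5 probe sets, was higher in HEL by 0.20 with no overlap. ALAS2 (0.615) and GATA1 (0.21) had higher means in HEL with overlap. TFRC (-0.86), HBZ (-0.73) and EPOR (-0.68) had lower ones. Of 8 megakaryocyte genes, 4 were at least 2-fold higher in HEL (50.0%, against 3.71% of all genes). These were the adhesion gene SELP (4.50), GP9 (3.21), ITGB3 (2.31) and the collagen receptor gene GP6 (1.37). Of the rest, GP1BA differed by 0.79, PPBP by 0.48, ITGA2B by 0.34 and PF4 by -0.10. For PPBP, ITGA2B and PF4 the lines overlapped. Among 8 genes of other cell types, KRT18 was higher in HEL by 1.37, EPCAM differed by -0.57, CD3D by -0.11 and MS4A1 by 0.097.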
